A study of Gossypium hirsutum with 24 samples.

Results

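Lipoxygenase and peroxisomal beta-oxidation were followed through 3 genes of cotton, Lox1, the acyl-CoA oxidase ACX and the multifunctional protein MFP. The members were all probe sets whose single annotated gene was LOC107919998 (Lox1), LOC107886061 (ACX) or LOC107932835 (MFP). They came to 5 of the 23973 probe sets tested, and to 3 of the 520 genes that had a probe set of their own. Lox1 had 1 probe set, ACX had 3 and MFP had 1. They were picked by gene name, with earlier results of these data known.

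The samples came from Gossypium hirsutum cultivar Bikaneri Nerma, an upland cotton, grown in field plots that were either irrigated or left without water from peak flowering. Drought samples were taken when soil moisture had come down to 19.5%, which was 50% of that in control plots and was reached after 18 to 19 days, and a shelter kept rain off these plots. The sample descriptions also give 20% as the moisture that was maintained. Each of the 8 groups was a water regime at 0, 5, 10 or 20 days post anthesis (dpa, the day of flowering being 0) and had 3 arrays that the labels call biological replicates. RNA came from whole bolls at 0 and 5 dpa (a label of the earliest stage also mentions leaf) and from ovules with their fibres at 10 and 20 dpa. Both regimes shared the cultivar and the site, and the number of plants behind an array was not given in the sources used here.

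Lipoxygenases add oxygen to polyunsaturated fatty acids. The hydroperoxides they form are the starting point of oxylipins, among them the hormone jasmonic acid. Acyl-CoA oxidase carries out the first, hydrogen peroxide-forming step of peroxisomal beta-oxidation, and the multifunctional protein carries out the hydration and dehydrogenation that follow. In plants this route breaks down fatty acids and also shortens the side chain of the jasmonate precursor. Enzymes of these classes can therefore stand at the entry and the exit of jasmonate synthesis as well as in fat breakdown. Whether Lox1 encodes an enzyme of the jasmonate branch or of another lipoxygenase branch is not annotated in the tables used here.

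All values below are log2 signals. Within each stage the deposited values of every probe set were centred on the median of that stage's 6 arrays, so a value says how far an array lay above or below the middle of its stage. They hold no expression level, and a change of the controls from stage to stage cannot be read from them; a tissue cannot be checked for absent markers either. A difference is drought minus control, with the standard error (SE) of a limma model over all 24 arrays, and was called at a Benjamini-Hochberg adjusted p under 0.05 over all probe sets. In such bulk samples, fewer cells of a type and less RNA per cell cannot be told apart.

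Drought and control arrays also differed in their technical controls. Poly-A RNA spikes were higher in drought arrays by 0.20 at 0 dpa, 1.07 at 10 dpa and 0.92 at 20 dpa, and lower at 5 dpa (−0.20). The signal of 5′ minus 3′ probe sets of cotton control transcripts, a measure of the length of the labelled RNA (the 5′/3′ measure), was higher in drought arrays by 0.66, 0.30, 0.36 and 1.17 at 0, 5, 10 and 20 dpa, with no overlap between the groups at any stage. Of the markers of other tissues, the pollen and anther gene G9 was higher by 7.95 ± 0.08 at 0 dpa, and the photosynthetic gene RCA1 differed by 0.37 at 0 dpa, −3.46 at 5 dpa and −0.85 at 20 dpa, each called with an SE of 0.13, and by −0.30 at 10 dpa, not called. Of 13 fibre marker probe sets, 3, 10, 11 and 12 were lower at 0, 5, 10 and 20 dpa, and 2, 1, 0 and 1 were higher. Over all probe sets 22.9%, 33.4%, 31.8% and 34.0% were lower and 21.4%, 24.8%, 28.5% and 26.0% higher. Of 6 seed marker probe sets, 2 were higher at each stage, 1 was lower at 5 dpa and 2 were lower at 20 dpa. Lea5-D and Lea14-A were the higher ones at 0, 5 and 10 dpa, where no storage protein probe set was called higher. The lower ones at 20 dpa were the storage protein gene LegA (−1.81 ± 0.11) and 1 of the 2 LEGB probe sets (−0.19 ± 0.07). The higher ones at 20 dpa were Lea14-A (1.17 ± 0.07) and the other LEGB probe set (0.76 ± 0.14), which was the lower one at 5 dpa (−0.68 ± 0.14). The part of these shifts in the results below was not tested beyond the values given beside them. Because the groups did not overlap in the 5′/3′ measure, a fit with it as covariate cannot tell it apart from drought. Such a fit also called fewer probe sets at 0 and 20 dpa (3686 and 4359) than the fit without it (10606 and 14380).

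The 3 genes differed between drought and control arrays in different ways. Lox1 turned with the stage: it was lower at 0 dpa, 2.84-fold higher at 5 dpa, 20.2-fold higher at 10 dpa and 7.10-fold lower at 20 dpa. MFP was higher at 0, 5 and 20 dpa, by 2.65-, 3.25- and 6.94-fold, and was not called at 10 dpa. ACX differed less, being 1.55-fold higher at 0 dpa, lower at 10 dpa (−0.59 on the log2 scale) and 2.61-fold higher at 20 dpa on the probe set named first in the rule, called its lead probe set here. Its calls at 0 and 20 dpa and that of MFP at 0 dpa were lost with a covariate for the length of the labelled RNA.

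**Figure D1:**
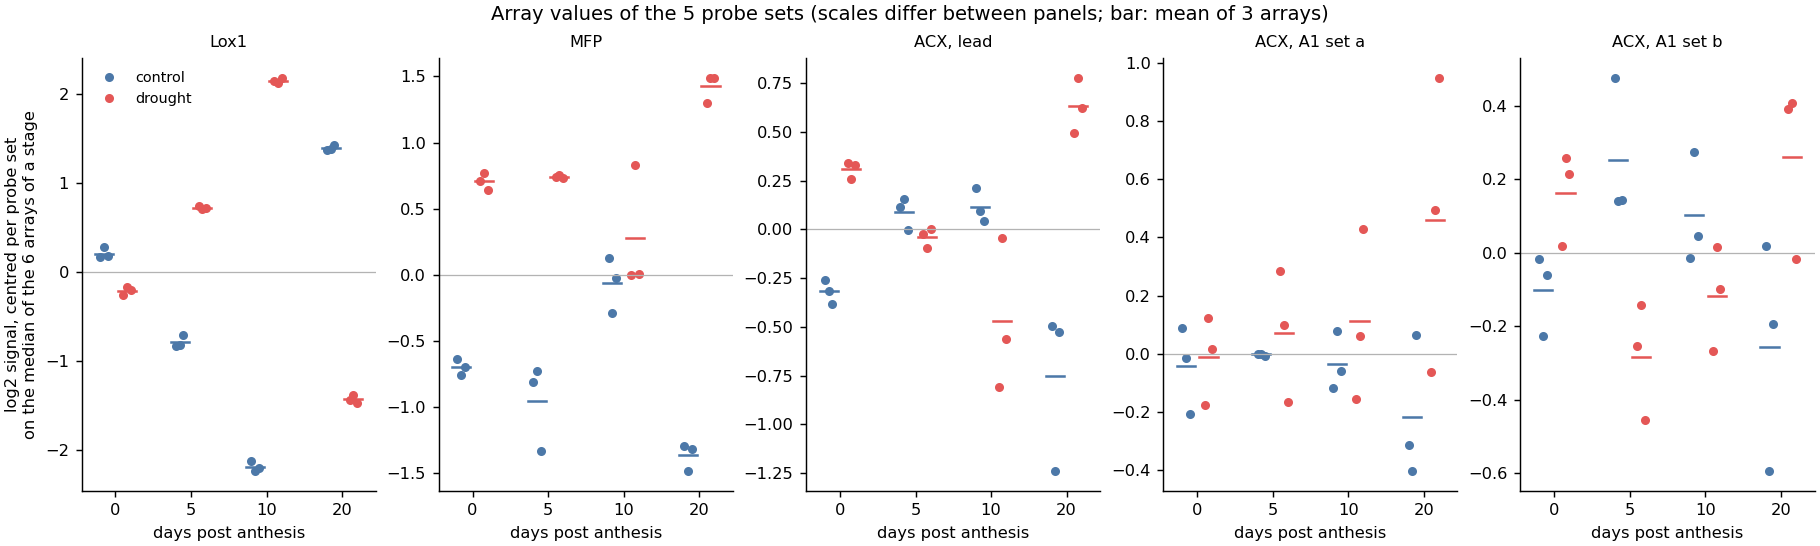
Centred log2 value of each array (y axis, scales differ between panels) for Lox1, MFP and the 3 ACX probe sets by stage in dpa (x axis), with control and drought arrays as separate points (3 each) and the group mean as a bar. Lox1 drought arrays lie above control arrays at 5 and 10 dpa and below them at 0 and 20 dpa, and MFP drought arrays lie above control arrays at 0, 5 and 20 dpa.

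Lox1 (LOC107919998) lies at D13:37931867-37935712 in the assembly Gossypium_hirsutum_v2.1, where D13 is a chromosome of the D subgenome. Upland cotton is an allotetraploid, with A and D subgenome copies of most genes, and its probe set is of the type with the suffix _s_at, which can bind several near-identical transcripts. Its values therefore cannot be assigned to one copy.

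At 10 dpa the Lox1 control arrays read −2.12, −2.23 and −2.20. The drought arrays read 2.14, 2.12 and 2.19. The groups were far apart, with little spread within each. The difference was 4.34 ± 0.05 (SE, n = 3 against 3; limma adjusted p = 8.25e-24), and Lox1 ranked 163 from the highest of the 23973 probe sets. Scaling the arrays on the poly-A spikes gave 3.27 at 10 dpa, still called.

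At 5 dpa the Lox1 control arrays read −0.83, −0.82 and −0.71, and the drought arrays 0.75, 0.71 and 0.72. Every drought array lay above every control array. The difference was 1.51 ± 0.05 (limma adjusted p = 3.11e-16) and ranked 977 from the highest.

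At 20 dpa the order of the groups was turned. The Lox1 control arrays read 1.38, 1.39 and 1.43, and the drought arrays −1.43, −1.38 and −1.47. All drought arrays lay below all control arrays. The difference was −2.83 ± 0.05 (limma adjusted p = 1.25e-20), rank 136 from the lowest.

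At 0 dpa the Lox1 difference was small. The control arrays read 0.17, 0.28 and 0.18 and the drought arrays −0.26, −0.17 and −0.20, again without overlap. The difference was −0.42 ± 0.05 (limma adjusted p = 7.65e-07). It was no longer called when arrays were scaled on the hybridisation controls (adjusted p = 0.0699), with the same size of −0.42.

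With the 5′/3′ measure as covariate, Lox1 kept its direction and its call at all 4 stages, at −0.38, 1.53, 4.36 and −2.75. Leaving out any 1 array kept it within 4.31 to 4.37 at 10 dpa and within −2.85 to −2.81 at 20 dpa.

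MFP (LOC107932835) lies at A08:126445408-126452703 of the same assembly, on a chromosome of the A subgenome. Its probe set has the suffix _a_at, and whether its values come from the A subgenome copy alone was not tested. At 20 dpa the MFP control arrays read −1.30, −1.49 and −1.32, and the drought arrays 1.30, 1.49 and 1.49. The groups lay well apart. The difference was 2.79 ± 0.17 (limma adjusted p = 1.58e-11), and it ranked 216 from the highest.

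At 0 dpa the MFP control arrays read −0.64, −0.76 and −0.70 and the drought arrays 0.71, 0.77 and 0.64. The groups did not overlap, and the difference was 1.41 ± 0.17 (limma adjusted p = 1.51e-06; rank 249). At 5 dpa the control arrays read −0.81, −0.73 and −1.33, of which replicate 3 stood lower than the others, and the drought arrays read 0.74, 0.75 and 0.73. The difference there was 1.70 ± 0.17 (limma adjusted p = 2.61e-08; rank 792).

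At 10 dpa the MFP groups overlapped. The control arrays read 0.13, −0.29 and −0.03 and the drought arrays −0.01, 0.83 and 0.01, so that drought replicate 2 alone stood high. The difference was 0.34 ± 0.17, with a 95% confidence interval of −0.02 to 0.70 and a limma adjusted p of 0.0960. It was 0.063 without drought replicate 2. It was called without drought replicate 1 (0.48, adjusted p = 0.0298) and without drought replicate 3 (0.47, adjusted p = 0.0330). It turned to −0.73, a called fall, when arrays were scaled on the poly-A spikes.

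The MFP rises were smaller with the 5′/3′ measure as covariate, which cannot be told apart from drought here. With that covariate the difference was 0.62 at 0 dpa and no longer called (adjusted p = 0.0892), 1.35 at 5 dpa and 1.41 at 20 dpa, and the latter were both still called. Scaled on the poly-A spikes, the 20 dpa difference was 1.87.

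ACX (LOC107886061) lies at D12:57387849-57393855. Its 3 probe sets were designed from different cDNA sequences. The lead probe set has the sense suffix (S1) and the suffix of a single transcript (_at). The others, called A1 set a and A1 set b here, have the array's antisense suffix (A1) and that of probe sets able to bind several transcripts (_s_at). Each of the 3 gave a different series of calls over the 4 stages.

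On the lead probe set the 20 dpa control arrays read −0.50, −1.24 and −0.53, and the drought arrays 0.50, 0.78 and 0.62. The groups did not overlap, although control replicate 2 stood apart from its group. The difference was 1.39 ± 0.16 (limma adjusted p = 3.11e-07), and it was 1.14 without that array. It was 0.46, still called, with arrays scaled on the poly-A spikes, 0.29 with Trp left out of those spikes (adjusted p = 0.0725), and 0.088 with the 5′/3′ measure as covariate (adjusted p = 0.910).

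At 0 dpa the lead probe set read −0.26, −0.31 and −0.38 in control arrays and 0.34, 0.26 and 0.33 in drought arrays. The groups were apart, with a difference of 0.63 ± 0.16 (limma adjusted p = 0.00389). With the 5′/3′ covariate the value was −0.11 and not called.

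At 10 dpa the control arrays read 0.21, 0.09 and 0.04 and the drought arrays −0.81, −0.04 and −0.56. The groups were separate by only 0.0857, because drought replicate 2 lay next to the control arrays. The difference was −0.59 ± 0.16 (limma adjusted p = 0.00380). It was −1.65 on the poly-A scale and −0.99 with the covariate, both called, whereas the mean of the 3 ACX probe sets was −0.22 and was not called.

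At 5 dpa the control arrays read 0.11, 0.15 and −0.00 and the drought arrays −0.02, −0.10 and 0.00, and the groups overlapped. The difference was −0.13 ± 0.16 with a 95% confidence interval of −0.47 to 0.21 (limma adjusted p = 0.535). It was called at −0.46 with the covariate and was 0.068 on the poly-A scale.

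The other ACX probe sets were also called higher at 20 dpa as deposited, but not with the 5′/3′ covariate, where A1 set b was at −0.34. A1 set a had a control mean of −0.22 ± 0.25 and a drought mean of 0.46 ± 0.51 at 20 dpa (SD, n = 3 each), which overlapped. Its difference of 0.68 ± 0.19 was called (limma adjusted p = 0.00441), fell to 0.43 without drought replicate 3, and was not called when only the 6 arrays of the stage were fitted (adjusted p = 0.0595). The differences at 0, 5 and 10 dpa were 0.03, 0.08 and 0.15, none of them called, with overlapping groups.

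A1 set b differed by 0.52 ± 0.15 at 20 dpa (limma adjusted p = 0.00426), from a control mean of −0.26 ± 0.31 to a drought mean of 0.26 ± 0.24, and its groups also overlapped. It was the 1 ACX probe set called at 5 dpa, at −0.54 ± 0.15 (limma adjusted p = 0.00319), where the groups did not overlap, and on the poly-A scale it was −0.34 and not called (adjusted p = 0.0581). Its differences at 0 and 10 dpa were 0.27 (adjusted p = 0.150) and −0.22 (adjusted p = 0.207). Both A1 sets turned at 20 dpa on the poly-A scale, to −0.25 and −0.41.

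**Figure D2:**
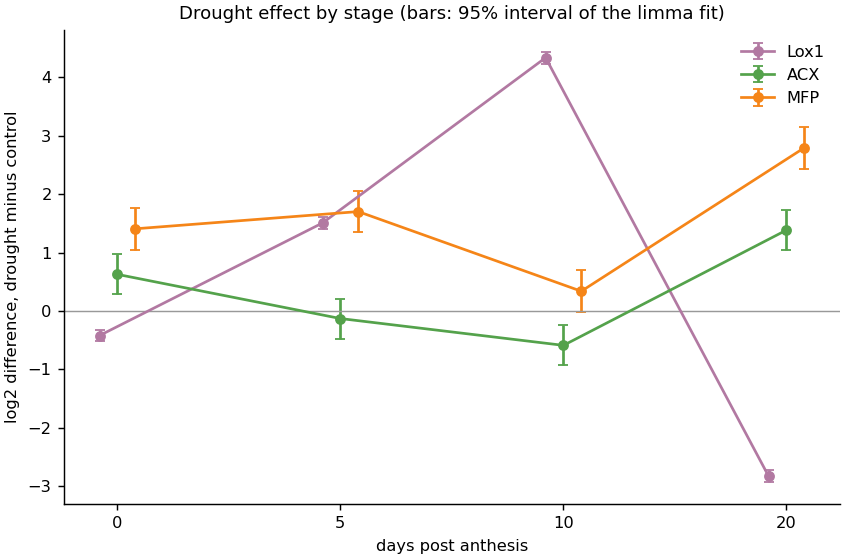
Drought minus control (y axis, log2 difference) at each stage in dpa (x axis) for Lox1, the lead ACX probe set and MFP, with bars for the 95% confidence interval of the limma model. Lox1 runs from −0.42 at 0 dpa over 4.34 at 10 dpa to −2.83 at 20 dpa, MFP stays at or above 0.34, and ACX lies between −0.59 and 1.39.

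The counts over the members have to be read against a table in which a large share of probe sets was called. At 0 dpa 3 of the 5 probe sets were called, 2 higher and 1 lower, beside 44.2% of all probe sets called, 21.4% higher and 22.9% lower. At 5 dpa 3 were called, 2 higher and 1 lower, beside 58.2% called, 24.8% higher and 33.4% lower. At 10 dpa 2 were called, 1 higher and 1 lower, beside 60.3% called, 28.5% higher and 31.8% lower. At 20 dpa all 5 were called, 4 higher and 1 lower, beside 60.0% called, 26.0% higher and 34.0% lower. Only Lox1 and MFP, 2 of the 5, were called at 20 dpa with the 5′/3′ covariate, and 1 of the 5 at 0 dpa. That fit called 4359 of all 23973 probe sets at 20 dpa and 3686 at 0 dpa. Scaled on the poly-A spikes, 2 were higher and 2 lower at 20 dpa, and 1 was higher and 4 lower at 10 dpa. That scale called 22256 of all probe sets at 20 dpa and 22440 at 10 dpa, and 5.81% and 6.48% of these calls were higher.

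Groups without overlap were as common elsewhere. They were found for 4, 3, 2 and 3 of the 5 probe sets at 0, 5, 10 and 20 dpa, beside 56.6%, 67.3%, 62.8% and 62.7% of all probe sets. The median difference of the 5 was 0.27, 0.08, 0.15 and 0.68, beside 0.01, −0.05, −0.02 and −0.07 over all probe sets. A call or separate groups were therefore common on these arrays, and the ranks given above say where Lox1 and MFP stood by size.

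**Figure D3:**
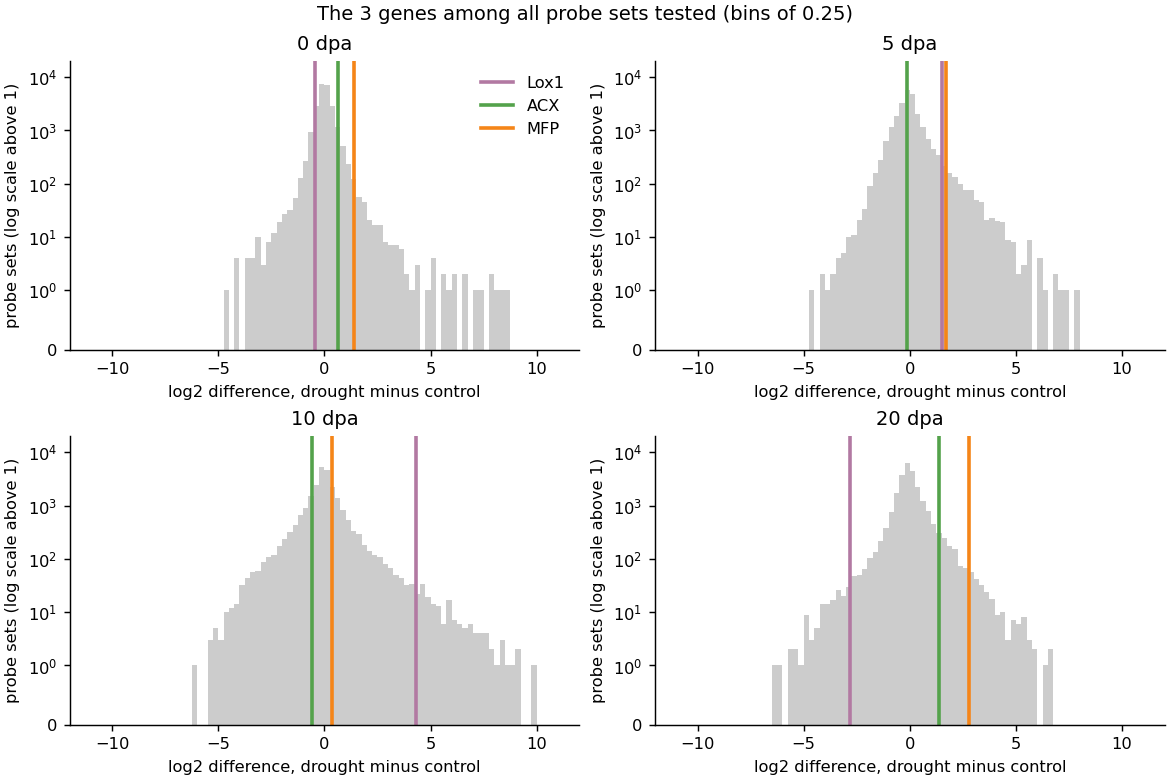
Number of probe sets (y axis, log scale above 1) by drought minus control (x axis, log2 difference) at each stage, for all 23973 probe sets, with vertical lines at the values of Lox1, ACX (lead probe set) and MFP. Lox1 lies in the upper tail at 10 dpa (4.34) and the lower tail at 20 dpa (−2.83), and MFP in the upper tail at 20 dpa (2.79).

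Whether the drought difference itself changed between stages was tested as a difference of differences, which does not depend on the centring within a stage. Any step from 0 or 5 dpa to 10 or 20 dpa also went from bolls to ovules, so stage and tissue cannot be told apart in it. From 10 to 20 dpa the Lox1 difference dropped by 7.16 on the log2 scale (−7.16, limma adjusted p = 1.79e-24), a 143-fold change of the ratio and rank 52 from the lowest. Lox1 was called in all 6 such comparisons. From 10 to 20 dpa the differences of ACX (lead probe set) and MFP moved the other way, by 1.97 and 2.46. These were 1.08 and 1.497 with the 5′/3′ covariate, both still called.

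From 5 to 10 dpa the Lox1 difference rose by 2.83 while that of MFP fell by 1.36 (−1.36 ± 0.24). ACX moved by −0.46 there, which was not called (adjusted p = 0.115), but was called at −0.67 without drought replicate 2 of 10 dpa (adjusted p = 0.00958). That array differed from the others of its group with an SD of 0.28 and 0.29 over all probe sets, against 0.17 between those. MFP moved by 0.29 from 0 to 5 dpa, which was not called (adjusted p = 0.327). Between 0 and 20 dpa the difference of Lox1 fell by 2.41 (−2.41) and those of ACX and MFP rose by 0.76 and 1.39. The ACX rise was 0.034 on the poly-A scale and 0.20 with the 5′/3′ covariate, and neither was called.

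Of the 5 probe sets, 3 were called between 0 and 5 dpa (53.3% of all), 2 between 5 and 10 dpa (46.6%) and 4 between 10 and 20 dpa (59.9%). Over the wider steps 4 were called between 0 and 10 dpa (58.4%), 3 between 0 and 20 dpa (44.8%) and 4 between 5 and 20 dpa (57.9%). The mean drought difference over the 4 stages was called for 4 of the 5 (68.5% of all). It was 1.56 ± 0.09 for MFP, 0.65 ± 0.02 for Lox1 and 0.32 ± 0.08 for ACX, the Lox1 mean being one of opposite values. On the poly-A scale the means were 1.06 for MFP, 0.15 for Lox1 and −0.17 for ACX, all called, and with the 5′/3′ covariate that of MFP was 0.82 and that of ACX −0.37, the latter not called. The mean of A1 set a was 0.23, and its call was lost on leaving out any of 12 of the 24 arrays.

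Differences between 2 of the genes on the same array do not depend on the scale of that array. They were compared between drought and control arrays at each stage, 12 comparisons in all, by a two-sided exact permutation test, for which 3 against 3 arrays allow no p below 0.1. MFP minus ACX (lead probe set) was higher in drought arrays at all 4 stages, by 0.78 ± 0.07, 1.83 ± 0.15, 0.93 ± 0.14 and 1.41 ± 0.19 at 0, 5, 10 and 20 dpa. In each of these the 3 drought arrays lay above the 3 control arrays (exact p = 0.1, adjusted p = 0.109).

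At 10 dpa MFP minus ACX was −0.18 ± 0.18 in control and 0.75 ± 0.16 in drought arrays (SD, n = 3). This depended on the ACX probe set used. Against A1 set a the 10 dpa difference was 0.19 ± 0.39, and against A1 set b it was 0.56 ± 0.30, with overlapping groups in both. At 0, 5 and 20 dpa MFP lay higher in drought arrays against each A1 set as well, without overlap, by 1.38, 1.63 and 2.12 against set a and 1.14, 2.24 and 2.28 against set b, values given without a test.

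Lox1 minus ACX was lower in drought arrays at 0 dpa (−1.05 ± 0.07), higher at 5 dpa (1.64 ± 0.09) and 10 dpa (4.92 ± 0.24), and lower at 20 dpa (−4.21 ± 0.25). Lox1 minus MFP was −1.83 ± 0.08 at 0 dpa, 3.997 ± 0.30 at 10 dpa and −5.62 ± 0.09 at 20 dpa, again with separate groups (exact p = 0.1, adjusted p = 0.109 for each). At 5 dpa Lox1 minus MFP overlapped between the groups, at −0.19 ± 0.23 (exact p = 0.8). With 3 arrays a group these tests could not pass 0.05.

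**Figure D4:**
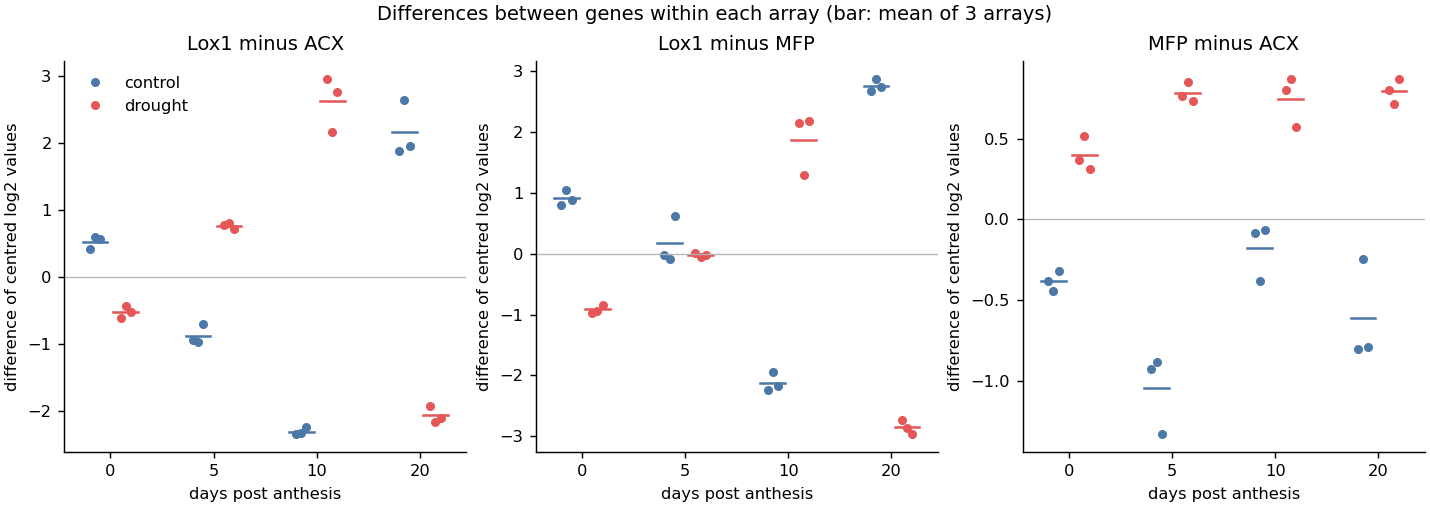
Difference of 2 genes on the same array (y axis, centred log2 units) for Lox1 minus ACX, Lox1 minus MFP and MFP minus ACX by stage in dpa (x axis), with 3 control and 3 drought arrays as points. The groups lie apart in 11 of the 12 comparisons, and overlap for Lox1 minus MFP at 5 dpa.

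The settings that moved these results are drawn in the plot of scales. Scaling on spikes shifts every probe set of an array alike, so the poly-A scale lowered all 3 genes at 10 and 20 dpa, and the hybridisation scale lowered them at 10 dpa and raised them at 20 dpa. Lox1 kept its direction at every stage under all of them.

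**Figure D5:**
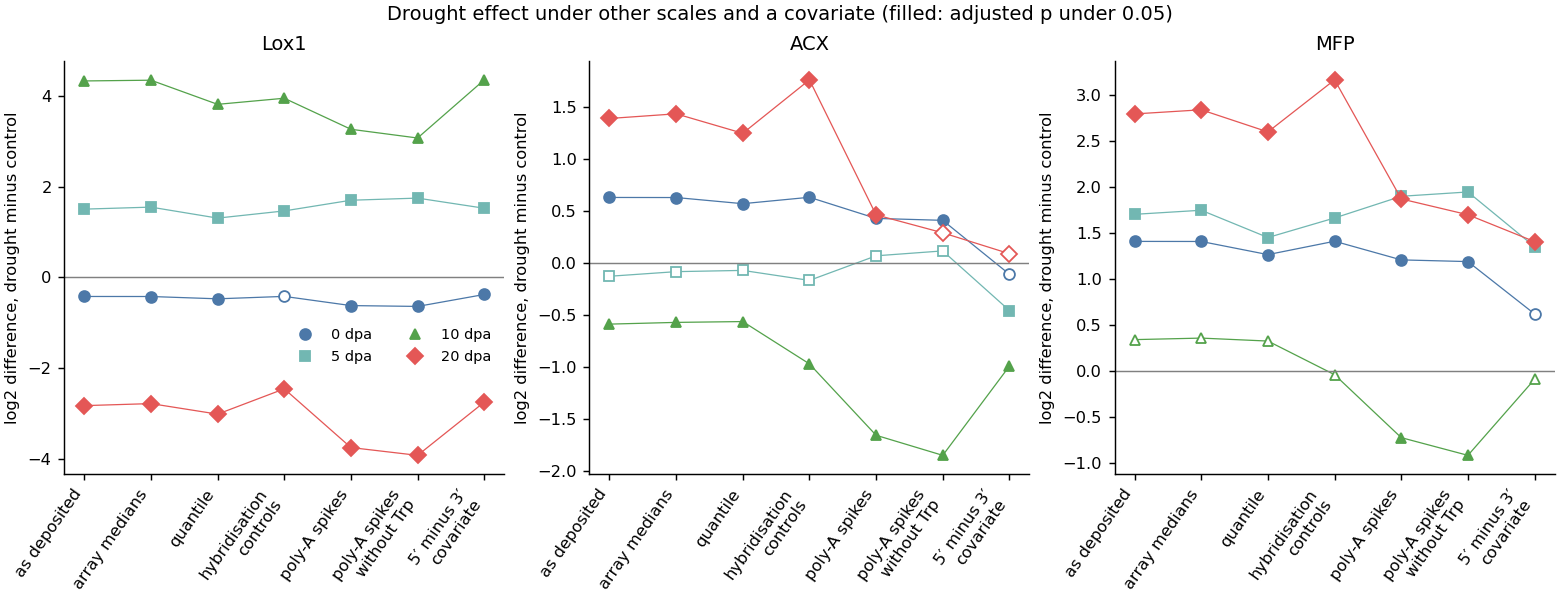
Drought minus control (y axis, log2 difference) for Lox1, ACX (lead probe set) and MFP under 7 settings (x axis), with 1 line for each stage and filled symbols for an adjusted p under 0.05. At 20 dpa ACX runs from 1.39 as deposited to 0.088 with the 5′/3′ covariate, and at 10 dpa Lox1 from 4.34 as deposited to 3.08 with Trp left out of the poly-A spikes.

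Few other genes of these pathways had a probe set with a gene name. The oxylipin and jasmonate list held 2 genes, Lox1 and pldd (LOC107945790), a phospholipase D, an enzyme that cleaves membrane phospholipids. The pldd differences were −0.05 at 0 dpa (not called) and 0.91, 0.63 and 0.60 at 5, 10 and 20 dpa, each called with an SE of 0.06. The pldd values on the poly-A scale turned to −0.44 at 10 dpa and −0.32 at 20 dpa, both called. It was not called at 10 dpa on the hybridisation scale (0.24, adjusted p = 0.190) or at 20 dpa with the 5′/3′ covariate (0.40, adjusted p = 0.0930), so that only the 5 dpa call held under all of these.

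The beta-oxidation list added CAT2 (LOC107943729), a catalase, the enzyme class that removes the hydrogen peroxide formed by acyl-CoA oxidase. The CAT2 differences were −0.10 at 0 dpa (not called), −0.70 at 5 dpa, 1.27 at 10 dpa and −0.94 at 20 dpa, the last 3 called with an SE of 0.08. On the poly-A scale the CAT2 value at 10 dpa was 0.20 and not called, and with the 5′/3′ covariate the 20 dpa value was −0.48 and not called (adjusted p = 0.128). In all, this list had 2, 1, 1 and 4 of 5 probe sets higher and 0, 2, 1 and 1 lower at 0, 5, 10 and 20 dpa, beside the shares over all probe sets given above. With the 5′/3′ covariate 0, 1, 1 and 1 were higher and 0, 3, 2 and 0 lower, and on the poly-A scale 2, 1, 0 and 2 were higher and 0, 1, 4 and 2 lower. Among all calls on the poly-A scale 22.9%, 64.1%, 6.48% and 5.81% were higher at these stages.

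Fatty acid synthesis, desaturation and lipid transfer supplied a wider list of 14 genes and 20 probe sets. At 0 dpa 7 were higher and 5 lower. At 5 dpa 3 were higher and 13 lower, at 10 dpa none was higher and 14 were lower, and at 20 dpa 6 were higher and 10 lower. Beside these, 21.4%, 24.8%, 28.5% and 26.0% of all probe sets were higher and 22.9%, 33.4%, 31.8% and 34.0% lower at 0, 5, 10 and 20 dpa. The medians were 0.01, −0.45, −0.53 and −0.21, and the last turned to 0.16 on the hybridisation scale. The 20 dpa counts became 8 higher and 7 lower on that scale, 2 and 16 on the poly-A scale and 3 and 5 with the 5′/3′ covariate, which at 0 dpa left 3 higher and none lower. Among all probe sets called at 20 dpa, 84.0%, 5.81% and 43.6% were higher in these fits, in the same order. Most fibre marker probe sets were lower at 5, 10 and 20 dpa too, and the list shares its fibre lipid transfer gene with those markers.

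The desaturase of that list, annotated 3FAD and FAD78-1A (LOC107899542), belongs to the omega-3 desaturases, which make the trienoic fatty acid from which jasmonate is built. Its differences were 0.31, 0.30, −1.42 and 1.87 at 0, 5, 10 and 20 dpa, each called with an SE of 0.09. The signs were opposite to those of Lox1 at 0, 10 and 20 dpa and alike at 5 dpa. The 0 dpa value was not called on the poly-A scale (0.11). The values at 10 and 20 dpa stayed called on the poly-A scale (−2.49 and 0.95) and with the 5′/3′ covariate (−1.28 and 2.35).

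BC1 (LOC107910621), the biotin carboxylase part of the acetyl-CoA carboxylase that starts fatty acid synthesis, differed by 0.74, 0.18, −0.63 and 2.47, of which the 5 dpa value was not called. At 20 dpa BC1 was 0.79 with the 5′/3′ covariate and not called (adjusted p = 0.0772). KCS12 (LOC107928969), a condensing enzyme of very-long-chain fatty acid elongation, was lower at 5, 10 and 20 dpa, by −1.09, −2.66 and −3.28.

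Likeness was taken as the root mean square distance of the 4 drought differences, over 245 genes with a gene name. Each gene was represented by its probe set closest to the member, and its other probe sets are not reported. The gene most like Lox1 was XTH3 (LOC107913353), named as a xyloglucan endotransglucosylase, at a distance of 0.45. Its differences were −0.42, 1.48, 3.84 and −2.07. The next were WRKY15 (1.01) and GEPH (1.02). For ACX (lead probe set) the nearest were FLA14 (0.25), XTH1 (0.27) and SERK1 (0.34), and for MFP they were DBP3b (0.55), MPK3 (0.66) and SusA1 (0.73). The 4 values compared come from the same 24 arrays for all genes.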

How the data were processed

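RNA of 24 samples (5.0 µg each) was labelled and hybridised to the Affymetrix cotton array, per the labels' protocols. The authors deposited log2 values, and RMA is named in the submitters' processing notes, without a version; the sources used here do not say which arrays it treated as one set. In the deposited table the median of each probe set over the 6 arrays of a stage was 0 to within 5e-07. The 159 control probe sets among 24132 rows were not tested. Genes were named from the platform annotation (697 probe sets with 1 gene, 46 with several, 23230 with none listed), and gene names and coordinates came from the RefSeq table of Gossypium_hirsutum_v2.1. No sequence of the members was used here.

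A model with 8 group means was fitted with limma 3.58.1 in R 4.3.3 (lmFit and eBayes, 16 residual degrees of freedom), with p-values adjusted over all 23973 probe sets, and was tested on simulated data. Every member was reported. Likeness was ranked by root mean square distance, with the 3 nearest genes named. The members and gene lists were chosen with earlier results of these data known. Alternatives were 3 array scales, quantile normalisation, a 5′/3′ covariate, array weights, robust shrinkage, a block, single stages, left-out arrays, the mean of the ACX probe sets and, chosen after seeing the data, the poly-A scale without Trp. For pairs of replicate arrays the SD of differences was 0.14 to 0.29, and the number of arrays limits the precision.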

Additional observations from a re-analysis of the deposited data

Results flagged for a closer look

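Over the 5 probe sets and all comparisons between stages, limma's test of the difference itself called 20 changes of the drought difference. Of all probe sets, 44.8% to 59.9% were called in these same comparisons. Changes from 0 or 5 dpa to 10 or 20 dpa also compare bolls with ovules. For Lox1 it changed by 1.93 from 0 to 5 dpa, 2.83 from 5 to 10 dpa, −7.16 from 10 to 20 dpa, 4.76 from 0 to 10 dpa, −2.41 from 0 to 20 dpa and −4.34 from 5 to 20 dpa. For ACX on its lead probe set the changes were −0.76 from 0 to 5 dpa, 1.97 from 10 to 20 dpa, −1.22 from 0 to 10 dpa, 0.76 from 0 to 20 dpa and 1.51 from 5 to 20 dpa. For ACX on A1 set b they were −0.80 from 0 to 5 dpa, 0.74 from 10 to 20 dpa, −0.49 from 0 to 10 dpa (adjusted p = 0.0488, not called on leaving out any of 8 of the 12 arrays, with an adjusted p of up to 0.126) and 1.06 from 5 to 20 dpa. For MFP they were −1.36 from 5 to 10 dpa, 2.46 from 10 to 20 dpa, −1.07 from 0 to 10 dpa, 1.39 from 0 to 20 dpa and 1.09 from 5 to 20 dpa. Groups of 3 arrays were not tested for outlying arrays.

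With the 5′/3′ measure as covariate, the changes from 0 to 5, 0 to 20 and 5 to 20 dpa of ACX on its lead probe set were −0.35, 0.20 and 0.55, those of A1 set b from 10 to 20, 0 to 10 and 5 to 20 dpa were 0.15, −0.27 and 0.42, and that of MFP from 5 to 20 dpa was 0.055, none of them called. On the poly-A scale those of the lead probe set were −0.36, 0.034 and 0.39, the change of A1 set b from 0 to 5 dpa was −0.41, and the MFP change was −0.029, also not called.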

How the results depend on the processing

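Lox1 kept its direction at the 4 stages under all alternatives run. Its call was lost once, at 0 dpa on the hybridisation scale (−0.42). For the other results the cause of a change was not tested. On the poly-A scale the stage differences that turned were the lead ACX probe set at 5 dpa (0.068), MFP at 10 dpa (−0.73), A1 set a at 0, 10 and 20 dpa (−0.17, −0.92 and −0.25) and A1 set b at 20 dpa (−0.41). Between stages, A1 set a turned from 5 to 10, 0 to 10, 0 to 20 and 5 to 20 dpa (−1.19, −0.75, −0.077 and −0.52), A1 set b from 5 to 10, 0 to 20 and 5 to 20 dpa (−0.95, −0.47 and −0.066), and MFP from 5 to 20 dpa (−0.029). The ACX means over stages turned to −0.17, −0.27 and −0.49. Without Trp the turned values were 0.11 for the lead ACX probe set at 5 dpa, −0.92 for MFP at 10 dpa, −0.19, −1.11 and −0.42 for A1 set a at 0, 10 and 20 dpa and −0.58 for A1 set b at 20 dpa, and the lead ACX probe set was not called at 20 dpa (0.29). On the hybridisation scale MFP at 10 dpa was −0.043, A1 set a was −0.24 at 10 dpa, −0.27 from 5 to 10 dpa and −0.27 from 0 to 10 dpa, and A1 set b was −0.024 from 5 to 10 dpa and −0.0056 in the mean.

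With the 5′/3′ covariate, the lead ACX probe set turned at 0 dpa (−0.11) and in the mean (−0.37), was called at 5 dpa (−0.46) and not at 20 dpa (0.088). MFP was not called at 0 dpa (0.62) and turned at 10 dpa (−0.092). A1 set b turned at 0 and 20 dpa (−0.22 and −0.34), from 0 to 20 dpa (−0.12) and in the mean (−0.45), and A1 set a from 0 to 5 dpa (−0.014). With array weights A1 set a turned from 5 to 10 dpa (−0.011). The mean of the ACX probe sets was −0.22 at 10 dpa and not called. Leaving out 1 array gave ranges of 0.063 to 0.48 for MFP at 10 dpa, −0.050 to 0.11, −0.031 to 0.19 and −0.013 to 0.28 for A1 set a at 0, 5 and 10 dpa, −0.062 to 0.16, −0.045 to 0.25 and −0.088 to 0.20 for its changes from 0 to 5, 0 to 10 and 5 to 10 dpa, and −0.036 to 0.041 for the mean of A1 set b.

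Of all probe sets, 10606, 13963, 14445 and 14380 were called at 0, 5, 10 and 20 dpa. The poly-A scale called 22440 at 10 dpa and 22256 at 20 dpa, and without Trp 6578, 22746 and 22579 were called at 0, 10 and 20 dpa. The hybridisation scale called 4246 at 0 dpa, and the covariate 3686 at 0 dpa and 4359 at 20 dpa. The share of calls that were higher was 48.3%, 42.6%, 47.3% and 43.3% as deposited, 22.9%, 64.1%, 6.48% and 5.81% on the poly-A scale and 58.0%, 40.5%, 18.9% and 84.0% on the hybridisation scale. Deviations of same-numbered arrays correlated at −0.10 to 0.11, so the numbers pair no samples by this check. With the replicate block 10058, 13707, 14221 and 14060 probe sets were called, and no call of Lox1, MFP or the lead ACX probe set at a stage changed. A filter on dim probe sets was not run, since the values hold no levels.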
